A study of Mus musculus with 6 samples.

Results

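Gene expression in the atrioventricular (AV) cushion of the mouse embryo at embryonic day 12.5 (E12.5) was compared with that in MC3T3-E1, an established osteoblast progenitor line. The comparison rests on 4 of 6 arrays, 2 titled 12.5 Valve Cells (here called cushion) and 2 titled MC3T3 Cell Line. It covers all 18193 genes of the series that were named by a probe set of their own. The cushion was dissected from wild-type FVB/N embryos. The MC3T3-E1 cells were subclone 4, a single subclone grown in vitro, and the line was derived from another mouse strain, so that strain, cell type and culture cannot be told apart here. The remaining group, AV valve dissected at E17.5 from wild-type FVB/N embryos (2 arrays), entered the fit for its share in the estimate of the spread and is set beside the cushion at the end. No group was treated. Each array carried pooled RNA, and the arrays of a group are described as biological duplicates. The p-values thus measure the spread between pools, with a limit for genes at the floor given below. The size of each pool is not stated in the labels.

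The AV cushion is a swelling of hyaluronan-rich matrix between the endocardium and the heart muscle. Endocardial cells there lose their contacts and become mesenchyme under BMP, TGF-beta and Notch signals, and this mesenchyme later forms the mitral and tricuspid leaflets. MC3T3-E1 cells were derived from mouse calvaria, the roof of the skull, and in culture they can be led to lay down collagen I and to mineralize it. Both make a collagenous matrix, and the series was set up around what remodelling valves share with osteoblast progenitors.

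Values were deposited as ratios on a linear scale and are given as log2 ratios. The 4 valve arrays (E12.5 and E17.5) set the scale, since their median is 1 for every probe set, so 0 on the log2 scale marks that median and levels cannot be set against each other between genes. The lowest ratio in the table was 0.01 (log2 -6.64). A total of 90 genes had a probe set at this floor in MC3T3, and their differences are lower bounds. A gene's value is the mean over its probe sets, and its difference (cushion minus MC3T3) is given with the standard error (SE) of limma over 2 arrays per group. To be called, a gene needed at least a 2-fold difference and an adjusted p (Benjamini-Hochberg over all 18193 genes) under 0.05. Where both MC3T3 arrays lie at the floor, they show no spread by construction. The SE and adjusted p of such a gene do not hold the spread between MC3T3 pools. The array signal over background is not known from ratios, and 2 arrays against 2 cannot reach p = 0.05 in an exact permutation test of a single gene, where the smallest p is 0.333.

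Of the 18193 genes, 1862 (10.2%) were called higher in the cushion and 1968 (10.8%) higher in MC3T3, together 21.1%. Counts of called members in every gene list below are to be read against these 10.2% and 10.8%. Without the 2-fold requirement 5341 and 5141 passed the adjusted p. The larger differences lay more often on the cushion side, with 203 genes at least 16-fold higher in the cushion and 63 at least 16-fold higher in MC3T3. The median difference over all genes was 0.01. Replicate arrays lay close together. The typical gene was 0.11 apart between the cushion arrays and 0.0792 apart between the MC3T3 arrays (medians of absolute log2 differences), against 0.345 between the group means. A gap of 2-fold or more between replicates was seen for 64 genes in the cushion and 3 in MC3T3. The arrays of the groups did not overlap for 40.4% of genes with the cushion higher and 38.1% with MC3T3 higher, so a lack of overlap alone says little. Of the 2085 called genes with more than 1 probe set, 138 had probe sets whose differences had opposite signs. Ranges over probe sets are given below for some genes only, and the probe sets of others also differed in size.

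**Figure D1:**
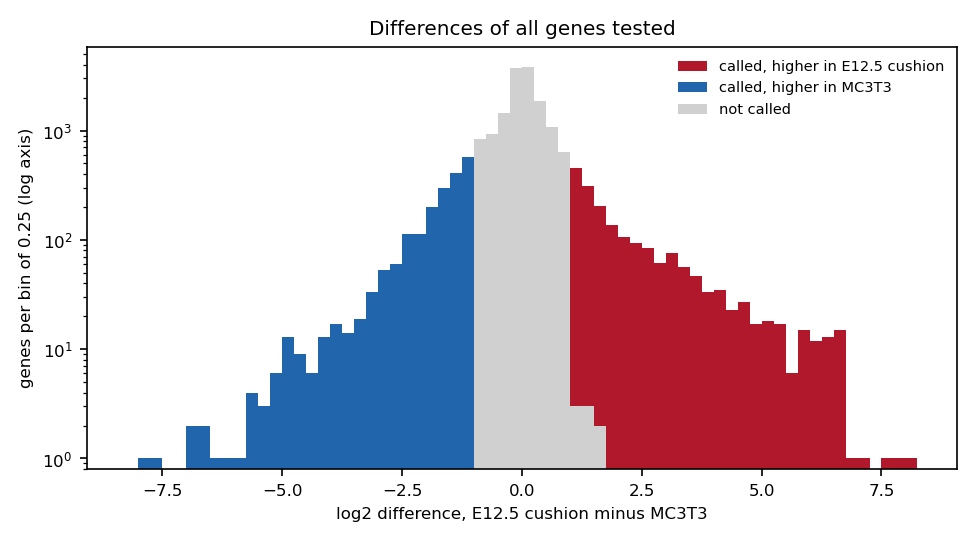
Distribution of the log2 difference (E12.5 cushion minus MC3T3) over all 18193 genes, in bins of 0.25 with a logarithmic axis of gene counts. The 1862 genes called higher in the cushion lie to the right and the 1968 called higher in MC3T3 to the left, and the right tail holds more genes at 16-fold and beyond, 203 against 63.

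Among genes without a floor value, the one furthest above MC3T3 in the cushion was Car2, a carbonic anhydrase gene abundant in red cells, at log2 ratios of 1.01 and -0.05 in the cushion, against -6.30 and -6.34 in MC3T3 (111-fold higher; log2 difference 6.80 ± 0.32, adjusted p = 8.63e-07). Tnnt1, the slow skeletal troponin T gene, was 88.8-fold higher in the cushion (log2 difference 6.47 ± 0.09, adjusted p = 4.01e-09). Mdk, the gene of the heparin-binding growth factor midkine, stood at 0.71 and 0.57 in the cushion, against -5.64 and -5.41 in MC3T3, 72-fold higher (log2 difference 6.17 ± 0.11, adjusted p = 8.04e-09). Both arrays of either group lay close together for Tnnt1 and Mdk, while the cushion arrays differed by more than 2-fold for Car2. Kcna5, a voltage-gated potassium channel gene of heart muscle, was 84.7-fold higher and Actn2, the gene of a Z-disc actinin, 80.3-fold higher. Lpar3, a receptor gene for lysophosphatidic acid, was 90.6-fold higher. The embryonic globin genes Hba-x, Hbb-bh1 and Hbb-y led the genes that were at the floor in MC3T3, with Rps4l and Cdkn1c after them, and these are described with their groups.

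In the other direction Pappa2, which encodes a protease that cleaves binding proteins of insulin-like growth factors, stood at -0.89 and -0.73 in the cushion, against 6.98 and 6.95 in MC3T3, 219-fold lower in the cushion (log2 difference -7.78 ± 0.09, adjusted p = 2.43e-09). Fgf7, a fibroblast growth factor made by mesenchyme, stood at -0.20 and -0.28 in the cushion, against 6.54 and 6.62 in MC3T3 (113-fold lower; log2 difference -6.82 ± 0.09, adjusted p = 2.57e-09). The cushion and MC3T3 arrays lay far apart for both genes, and the replicates of MC3T3 differed by less than 0.1. Vgll3, a cofactor of TEAD transcription factors, was 53.3-fold lower in the cushion and Efhd1, a calcium-binding protein gene, 99.98-fold lower. The proteoglycan genes Aspn, Omd and Ogn, the complement protease genes C1s1 and C1ra, and the bone and matrix genes Ibsp, Ccn3 and Col8a1 were also among the 15 furthest below MC3T3 and return below.

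The cushion samples carried transcripts of several cell types beside mesenchyme. All 14 measured epicardial and mesothelial markers, 28 of 30 cardiomyocyte markers, 12 of 14 erythroid markers, 23 of 27 endothelial and endocardial markers and 17 of 22 macrophage and leukocyte markers were called higher in the cushion, and none of them was called higher in MC3T3, against the 10.2% of all genes called higher in the cushion. In such bulk samples, fewer cells of a type and less RNA per cell cannot be told apart. The cardiomyocyte list had medians of -0.33 and -0.23 on the cushion arrays and -5.92 and -5.78 on the MC3T3 arrays, and 19 of its genes were at the floor in MC3T3. Actc1, the gene of cardiac actin, stood at -0.06 and -0.04 in the cushion, against -6.64 and -6.64 in MC3T3, which makes it at least 96.7-fold higher in the cushion (log2 difference 6.60 ± 0.07, adjusted p = 2.43e-09), and Myh6 was at least 39-fold and Tnnt2, the cardiac troponin T gene, at least 26.3-fold higher. Without the genes at the floor 9 cardiomyocyte calls were left.

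Endothelial genes were higher in the cushion as well. Pecam1, an adhesion gene of endothelial cells, stood at -0.18 and -0.21 in the cushion, against -4.46 and -4.56 in MC3T3 (19.9-fold higher; log2 difference 4.31 ± 0.08, adjusted p = 1.05e-08). Tek, which encodes the angiopoietin receptor, was at least 87.9-fold higher and Cdh5, the gene of VE-cadherin, 9.14-fold higher. The endothelial list had medians of -0.18 and -0.16 on the cushion arrays and -3.30 and -3.41 on the MC3T3 arrays. Npr3, a clearance receptor gene of natriuretic peptides in endocardium, differed by -0.12 ± 0.08 and Flt1, a receptor gene for vascular endothelial growth factor, by -0.49 ± 0.08, and neither was called. The epicardial regulator gene Wt1 was 18.7-fold higher in the cushion and Upk3b, a mesothelial uroplakin gene, at least 91.5-fold higher, with list medians of 0.08 and -0.21 on the cushion arrays and -3.91 and -3.87 on the MC3T3 arrays.

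Blood cell markers differed between the cushion arrays. Hba-x, the embryonic alpha-like globin gene of primitive red cells, stood at 1.84 and 0.98 in the cushion, against -6.64 and -6.64 in MC3T3 (at least 266-fold higher; log2 difference 8.05 ± 0.23, adjusted p = 7.24e-08). Hbb-bh1, an embryonic beta-like globin gene, was at least 227-fold higher and Hbb-y at least 187-fold higher. The erythroid list had medians of 1.40 on cushion array 1 and 0.30 on cushion array 2, against -2.32 and -2.28 on the MC3T3 arrays. The macrophage list had medians of 0.29 and -0.31 on the cushion arrays and -1.79 and -1.69 on the MC3T3 arrays. Csf1r, the receptor gene for macrophage colony-stimulating factor, was 4.27-fold higher in the cushion, C1qa 6.59-fold higher and Ctss, the lysosomal protease gene cathepsin S, 30.6-fold higher. Ptprc, the pan-leukocyte gene of CD45, stood at -0.66 and -0.83 in the cushion, against -1.57 and -1.31 in MC3T3 and was not called (log2 difference 0.70 ± 0.11, adjusted p = 0.000723).

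Of 17 hepatocyte markers 3 were called higher in the cushion. Alb, the gene of serum albumin, stood at -0.91 and -3.13 in the cushion, against -4.54 and -5.02 in MC3T3 and Ttr, the transthyretin gene, at -0.29 and -1.49 in the cushion, against -4.09 and -4.08 in MC3T3. The cushion arrays lay more than 1 apart for both. The call of Alb was lost with the trended and robust variance (adjusted p = 0.14), without cushion replicate 1 (0.0918) and without MC3T3 replicate 2 (0.0833), and the calls of Alb and Ttr were both lost without cushion replicate 1, where 1 of the 17 markers was called. The call of Ttr was also lost with the trended and robust variance (adjusted p = 0.102) and when probe sets ending in _x or _s were left out (1.09, adjusted p = 0.178). The third was Afp, the gene of alpha-fetoprotein (at least 7.38-fold higher). Its cushion arrays also lay more than 1 apart, at -0.03 and -1.31, and its 5 probe sets disagreed in sign, from -0.22 to 5.62. Apoa1 differed by 0.97 ± 0.75 and was not called. Of 14 melanocyte and neural crest glia markers 5 were called higher in the cushion, led by the endothelin receptor gene Ednrb (at least 11.1-fold), and 1 higher in MC3T3, S100b (5.96-fold lower in the cushion). Sox10, the defining regulator of neural crest glia, differed by 0.29 ± 0.10 and Dct, a pigment cell gene, by 0.47 ± 0.09, and neither was called. Among 20 epithelial markers 4 were called higher in the cushion, led by Krt7 (20.7-fold), and 1 in MC3T3. Cdh1, an epithelial cadherin gene, stood at -0.04 and -0.51 in the cushion, against -1.19 and -1.32 in MC3T3. Its difference of 0.98 ± 0.22 lay just under 2-fold and was not called. Epcam, an epithelial adhesion gene, differed by 0.14 ± 0.13 over probe sets from -1.12 to 1.40. It was called higher in the cushion when probe sets ending in _x or _s were left out (1.40, adjusted p = 0.000216 in limma's fit). Of 19 adipocyte, muscle and late cartilage markers 5 were called higher in the cushion, led by Lpl (26.2-fold) and Cd36 (at least 13.5-fold). The 2 called higher in MC3T3 were Pax3 and Matn3. Pax3, a paired-box gene of muscle and neural crest progenitors, stood at 0.13 and 0.04 in the cushion, against 2.94 and 2.91 in MC3T3 (7.15-fold lower in the cushion; log2 difference -2.84 ± 0.08, adjusted p = 5.98e-08).

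**Figure D2:**
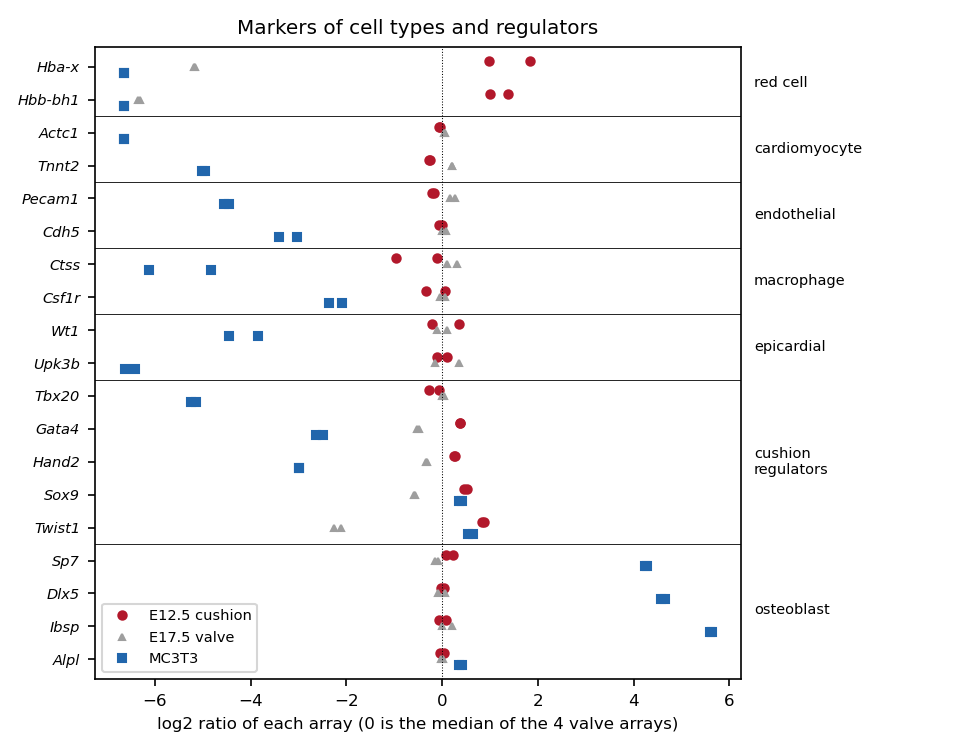
Log2 ratio of each array for markers of cell types and for regulators, with cushion arrays as circles, E17.5 valve arrays as triangles and MC3T3 arrays as squares. Markers of red cells, heart muscle, endothelium, macrophages and epicardium lie higher in the cushion than in MC3T3, Sp7, Dlx5 and Ibsp lie higher in MC3T3, and Sox9 and Twist1 lie close together in both.

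Several markers of the osteoblast lineage were higher in MC3T3. Sp7, the gene of osterix, a transcription factor needed for osteoblasts to form, stood at 0.08 and 0.23 in the cushion, against 4.28 and 4.23 in MC3T3 (17.2-fold lower in the cushion; log2 difference -4.10 ± 0.08, adjusted p = 1.46e-08). Dlx5, a homeobox gene of bone and craniofacial mesenchyme, stood at 0.03 and -0.03 in the cushion, against 4.57 and 4.66 in MC3T3 (24.5-fold lower; log2 difference -4.62 ± 0.09, adjusted p = 1.05e-08). The groups lay more than 4 apart for both. Of 23 osteoblast transcription factors measured, 4 were called higher in MC3T3 (Dlx5, Sp7, the vitamin D receptor gene Vdr and Runx3) and 2 in the cushion (Lef1 and Nfatc1). These are 17.4% and 8.70% of the list, beside 10.8% and 10.2% of all genes. The median difference of the list was -0.69, beside 0.01 over all genes. Without cushion replicate 1 the number called higher in MC3T3 was 8. The probe sets of Runx3 disagreed, with differences from -4.63 to 0.19. Alpl, the alkaline phosphatase gene used as a marker of osteoblasts, stood at -0.05 and 0.03 in the cushion, against 0.41 and 0.36 in MC3T3 and was not called (log2 difference -0.39 ± 0.08, adjusted p = 0.0026). Runx2 and Bglap, which would check the label further, are not analysed here.

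Transcription factors of valve mesenchyme split between the groups. Of 41 measured, 18 were called higher in the cushion and 10 higher in MC3T3, with a median difference of 0.41. The cardiac regulators were on the cushion side. Tbx20, a T-box gene of the developing heart, stood at -0.28 and -0.06 in the cushion, against -5.14 and -5.25 in MC3T3 (at least 32.5-fold higher; log2 difference 5.02 ± 0.10, adjusted p = 1.1e-08). Gata4, a zinc finger gene of heart and cushion, stood at 0.37 and 0.37 in the cushion, against -2.64 and -2.50 in MC3T3 (7.64-fold higher; log2 difference 2.93 ± 0.08, adjusted p = 5.79e-08). Hand2, a basic helix-loop-helix gene of the heart, was at least 9.51-fold higher and Gata6 9.9-fold higher. The 3 probe sets of Hand2 ran from 0.96 to 6.91. Hopx and Irx4, homeobox genes of heart muscle, were 23.1-fold and 17.5-fold higher, and Tcf21, a gene of epicardium-derived cells, at least 14.8-fold higher. These genes are shared with heart muscle and epicardium, whose markers moved the same way, and the part of those cells in the result was not tested.

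Several factors of mesenchyme were higher in MC3T3, and others were not called. Prrx1, a homeobox gene of limb and skull mesenchyme, stood at -0.28 and -0.26 in the cushion, against 3.17 and 3.28 in MC3T3 (11.3-fold lower in the cushion; log2 difference -3.50 ± 0.08, adjusted p = 2.14e-08). Snai2, a zinc finger repressor active in epithelial-to-mesenchymal transition, stood at 0.06 and -0.04 in the cushion, against 2.02 and 2.40 in MC3T3 (4.61-fold lower; log2 difference -2.20 ± 0.13, adjusted p = 2.46e-06), with Osr1 4.18-fold, Id4 4.11-fold and Prrx2 2.63-fold lower. The arrays of the groups did not overlap for any of these 5 genes, as for 38.1% of all genes with MC3T3 higher. Twist1, a regulator of mesenchymal progenitors, stood at 0.82 and 0.87 in the cushion, against 0.53 and 0.64 in MC3T3 and was not called (log2 difference 0.26 ± 0.08, adjusted p = 0.0295). Sox9, a regulator of cartilage and cushion mesenchyme, stood at 0.46 and 0.52 in the cushion, against 0.35 and 0.40 in MC3T3 (log2 difference 0.11 ± 0.08, adjusted p = 0.236), and Msx1, a homeobox gene of cushion and skull, at 0.49 and 0.41 in the cushion, against -0.31 and -0.35 in MC3T3 (log2 difference 0.78 ± 0.07, adjusted p = 4.61e-05). The 95% interval of the Sox9 difference ran from -0.06 to 0.29.

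Hox genes, which mark position along the body axis and are largely silent in the heart and the skull vault, differed in few members. Of 33 measured, 1 was called higher in the cushion and 2 higher in MC3T3, fewer in either direction than over all genes. Hoxb2 stood at 0.59 and 0.11 in the cushion, against -2.07 and -2.15 in MC3T3 (5.49-fold higher; log2 difference 2.46 ± 0.15, adjusted p = 3.22e-06). Hoxa10 stood at 0.04 and 0.03 in the cushion, against 2.91 and 3.38 in MC3T3 (8.64-fold lower in the cushion; log2 difference -3.11 ± 0.14, adjusted p = 7.53e-07), and Hoxa9, its neighbour in the cluster, was 2.18-fold lower, with probe sets from -2.18 to -0.08.

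Genes of the fibrillar collagens, which form the tensile fibres of bone, skin and mature valve, were mostly higher in MC3T3. Of 11 measured, 7 were called higher in MC3T3 and none higher in the cushion, against 10.8% and 10.2% of all genes. Col1a1, the alpha 1 chain of collagen I, stood at -0.82 and -0.95 in the cushion, against 2.53 and 2.64 in MC3T3 (11.1-fold lower in the cushion; log2 difference -3.47 ± 0.08, adjusted p = 3.19e-08). Col1a2, the other chain of the same trimer, stood at -0.69 and -0.67 in the cushion, against 2.24 and 2.25 in MC3T3 (7.61-fold lower; log2 difference -2.93 ± 0.07, adjusted p = 3.65e-08). Col11a1, a chain that nucleates fibrils in cartilage and bone, stood at -0.16 and 0.02 in the cushion, against 4.93 and 4.91 in MC3T3 (31.8-fold lower; log2 difference -4.99 ± 0.09, adjusted p = 9.76e-09). The groups lay far apart for all 3. The collagen V genes Col5a1, Col5a2 and Col5a3 were 3.3-fold, 3.17-fold and 3.73-fold lower and Col27a1 2.5-fold lower. The 2 probe sets of Col5a3 ran from -3.72 to -0.08. Col3a1, the collagen of distensible tissue, stood at -0.47 and -0.40 in the cushion, against 0.27 and 0.34 in MC3T3 and missed the 2-fold requirement (log2 difference -0.74 ± 0.08, adjusted p = 7.41e-05), as did Col24a1 (-0.77 ± 0.14) and Col11a2 (-0.32 ± 0.11). Col2a1, the main collagen of cartilage and also present in cushion mesenchyme, stood at 0.74 and 1.33 in the cushion, against 1.06 and 1.04 in MC3T3 (log2 difference -0.01 ± 0.18, adjusted p = 0.967), a difference that came to 0.28 without cushion replicate 1.

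Genes that fold, trim and crosslink collagen were more often higher in MC3T3. Of 24 measured, 9 were called higher in MC3T3 and 3 in the cushion, with a median difference of -0.78. Lox, the lysyl oxidase that starts crosslinks, stood at -0.99 and -1.22 in the cushion, against 1.90 and 2.01 in MC3T3 (8.31-fold lower in the cushion; log2 difference -3.05 ± 0.11, adjusted p = 2.57e-07). Pcolce, which enhances removal of the C-propeptide, stood at -0.19 and -0.18 in the cushion, against 2.43 and 2.33 in MC3T3 (5.9-fold lower; log2 difference -2.56 ± 0.08, adjusted p = 8.54e-08), and P4ha3, a prolyl hydroxylase subunit, was 5.57-fold lower. Pcolce2 stood at 0.19 and -0.22 in the cushion, against 3.81 and 3.84 in MC3T3 (14.3-fold lower), with an SE of 0.51 and E17.5 arrays at 1.20 and -0.72. Serpinh1, the collagen chaperone gene, stood at 0.31 and 0.69 in the cushion, against 1.57 and 1.62 in MC3T3 (2.14-fold lower), and its difference came to -0.91 without cushion replicate 1, and to -0.78 without probe sets ending in _x or _s, both under the 2-fold requirement. Loxl1, the lysyl oxidase linked to elastic fibres, went the other way and stood at 0.09 and -0.06 in the cushion, against -1.87 and -1.96 in MC3T3 (3.82-fold higher in the cushion; log2 difference 1.93 ± 0.09, adjusted p = 7.13e-07).

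Of 27 other collagen genes measured, 9 were called higher in the cushion and 7 higher in MC3T3. The collagen VI genes, whose product forms beaded microfibrils around cells, were higher in MC3T3. Col6a3 stood at -1.18 and -1.33 in the cushion, against 2.42 and 2.48 in MC3T3 (13.1-fold lower in the cushion; log2 difference -3.71 ± 0.09, adjusted p = 2.89e-08), Col6a1 was 7.89-fold and Col6a2 5.9-fold lower. Col8a1, a network collagen of Descemet's membrane and vessel wall, stood at 0.05 and -0.12 in the cushion, against 5.41 and 5.38 in MC3T3 (43.2-fold lower; log2 difference -5.43 ± 0.08, adjusted p = 5.3e-09), and its partner Col8a2 was 14-fold lower. Col12a1, a collagen that binds the surface of collagen I fibrils, was 6.47-fold lower, with probe sets from -6.06 to -0.12. On the cushion side, Col9a1, which decorates cartilage fibrils, stood at 0.60 and 0.84 in the cushion, against -3.08 and -3.15 in MC3T3 (14.2-fold higher; log2 difference 3.83 ± 0.16, adjusted p = 5.56e-07), and Col9a3 was 3.7-fold higher. The basement membrane collagen gene Col18a1 was 8.1-fold higher, the transmembrane collagen gene Col13a1 8.38-fold higher and Col4a1 2.35-fold higher in the cushion, beside the endothelial and heart muscle markers that also moved that way and whose part was not tested.

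Small leucine-rich proteoglycans, which bind collagen fibrils and growth factors, gave some of the largest differences. Of 15 measured, 7 were called higher in MC3T3 and none higher in the cushion. Aspn, encoding asporin, which binds collagen I and TGF-beta, stood at -4.23 and -4.73 in the cushion, against 3.16 and 3.24 in MC3T3 (205-fold lower in the cushion; log2 difference -7.68 ± 0.15, adjusted p = 1.14e-08). Omd, encoding osteomodulin, a keratan sulfate proteoglycan of bone, stood at -0.39 and -0.11 in the cushion, against 6.55 and 6.51 in MC3T3 (109.9-fold lower; log2 difference -6.78 ± 0.11, adjusted p = 5.3e-09). Ogn, encoding osteoglycin, stood at -2.85 and -3.49 in the cushion, against 2.95 and 3.04 in MC3T3 (71.7-fold lower; log2 difference -6.16 ± 0.18, adjusted p = 8.31e-08). Every cushion array lay below every MC3T3 array for these 3, as for 38.1% of all genes. The E17.5 arrays lay between the groups, at 0.97 and 0.96 for Aspn, 0.10 and 0.19 for Omd and 0.95 and 0.90 for Ogn. Fmod, encoding fibromodulin, was 19.2-fold lower in the cushion, Prelp 8.5-fold lower, the biglycan gene Bgn 3.94-fold lower and the decorin gene Dcn 2.98-fold lower. Lum and Kera, the lumican and keratocan genes, differed by -0.25 ± 0.07 and 0.32 ± 0.11 and were not called.

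Among heparan sulfate proteoglycans and their kin, Gpc3 stood apart. This glypican gene, which restrains growth of the embryo, stood at 0.24 and 0.27 in the cushion, against -4.59 and -4.47 in MC3T3 (27.5-fold higher in the cushion; log2 difference 4.78 ± 0.09, adjusted p = 1.24e-08). Agrn, encoding the basement membrane proteoglycan agrin, was 4.6-fold higher in the cushion. Sdc2, a syndecan gene of mesenchyme, stood at -0.14 and -0.19 in the cushion, against 2.83 and 2.86 in MC3T3 (8.04-fold lower; log2 difference -3.01 ± 0.09, adjusted p = 6.81e-08), and Gpc1 and Gpc4 were 4.04-fold and 3.99-fold lower. Of the 15 genes measured in the list 3 were called higher in the cushion and 6 higher in MC3T3.

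Genes of the hyaluronan-rich cushion matrix divided too. Of 22 genes for hyaluronan, versican and cartilage matrix, 5 were called higher in the cushion and 4 higher in MC3T3. Vcan, encoding versican, the large proteoglycan of cushion matrix, stood at 0.04 and 0.38 in the cushion, against -1.22 and -1.06 in MC3T3 (2.54-fold higher; log2 difference 1.35 ± 0.12, adjusted p = 3.11e-05), with 8 probe sets from -0.13 to 3.18. Hapln1, whose link protein holds versican and aggrecan on hyaluronan, stood at 0.71 and 1.19 in the cushion, against -0.68 and -0.27 in MC3T3 (2.7-fold higher; log2 difference 1.43 ± 0.18, adjusted p = 0.000238). Frzb, a secreted Wnt antagonist of cartilage, was 12.7-fold higher in the cushion and Cytl1 6.14-fold higher. Has2, the hyaluronan synthase gene that cushions need in order to form, stood at 0.29 and 0.81 in the cushion, against 1.35 and 1.58 in MC3T3 and was not called (log2 difference -0.91 ± 0.20, adjusted p = 0.0043), though it passed 2-fold without cushion replicate 2 (-1.17) and without MC3T3 replicate 1 (-1.03). Cd44, the main cell surface receptor for hyaluronan, stood at -0.16 and 0.14 in the cushion, against 2.32 and 2.29 in MC3T3 (4.98-fold lower in the cushion; log2 difference -2.32 ± 0.11, adjusted p = 1.11e-06), and the matrilin gene Matn2 was 6.46-fold lower. The 4 probe sets of Cd44 ran from -3.21 to -0.02.

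Of 16 elastic fibre genes 7 were called higher in the cushion and 2 higher in MC3T3, with a median difference of 0.37. Efemp1, encoding a fibulin, stood at -1.14 and -1.32 in the cushion, against -6.64 and -6.64 in MC3T3 (at least 42.5-fold higher; log2 difference 5.41 ± 0.13, adjusted p = 2.69e-08). Eln, encoding tropoelastin, stood at -0.37 and -0.39 in the cushion, against -3.34 and -3.25 in MC3T3 (7.56-fold higher; log2 difference 2.92 ± 0.21, adjusted p = 8.05e-06). Mfap4, a microfibril-associated gene, was 19.3-fold higher, Fbln1, encoding fibulin 1, 6.52-fold higher and Mfap2 5.87-fold higher. The 3 probe sets of Fbln1 ran from -0.01 to 4.13. Mfap5, another microfibril gene, stood at -0.80 and -0.79 in the cushion, against 1.03 and 1.07 in MC3T3 and was 3.59-fold lower in the cushion (log2 difference -1.84 ± 0.10, adjusted p = 1.64e-06).

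Matricellular genes, whose products sit in matrix and act on cells more than they bear load, were more often higher in MC3T3, with 8 of 22 called there and 4 called higher in the cushion. Ccn3, a CCN family gene, stood at -2.60 and -2.86 in the cushion, against 2.96 and 2.98 in MC3T3 (52-fold lower in the cushion; log2 difference -5.70 ± 0.16, adjusted p = 5.48e-08). Tnc, encoding tenascin C, stood at -0.62 and -0.61 in the cushion, against 3.59 and 3.43 in MC3T3 (17.4-fold lower; log2 difference -4.12 ± 0.12, adjusted p = 9.24e-08). Postn, encoding periostin, a matricellular protein of valve and periosteum, stood at -1.03 and -0.75 in the cushion, against 0.79 and 0.81 in MC3T3 (3.22-fold lower; log2 difference -1.69 ± 0.10, adjusted p = 3.54e-06). The groups did not overlap for any of the 3, as for 38.1% of all genes with MC3T3 higher, and the gap was widest for Ccn3. Thbs2 was 8.45-fold lower in the cushion, and Thbs4, another thrombospondin gene, 10.5-fold higher. Smoc2, a SPARC-related gene, was 10.4-fold higher in the cushion. Sparc itself, a collagen-binding gene of bone, stood at -0.17 and -0.07 in the cushion, against 0.91 and 0.80 in MC3T3 and lay just under 2-fold (log2 difference -0.98 ± 0.08, adjusted p = 1.99e-05), passing it without cushion replicate 2 (-1.03), without MC3T3 replicate 2 (-1.03) and with the median over probe sets (-1.36).

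**Figure D3:**
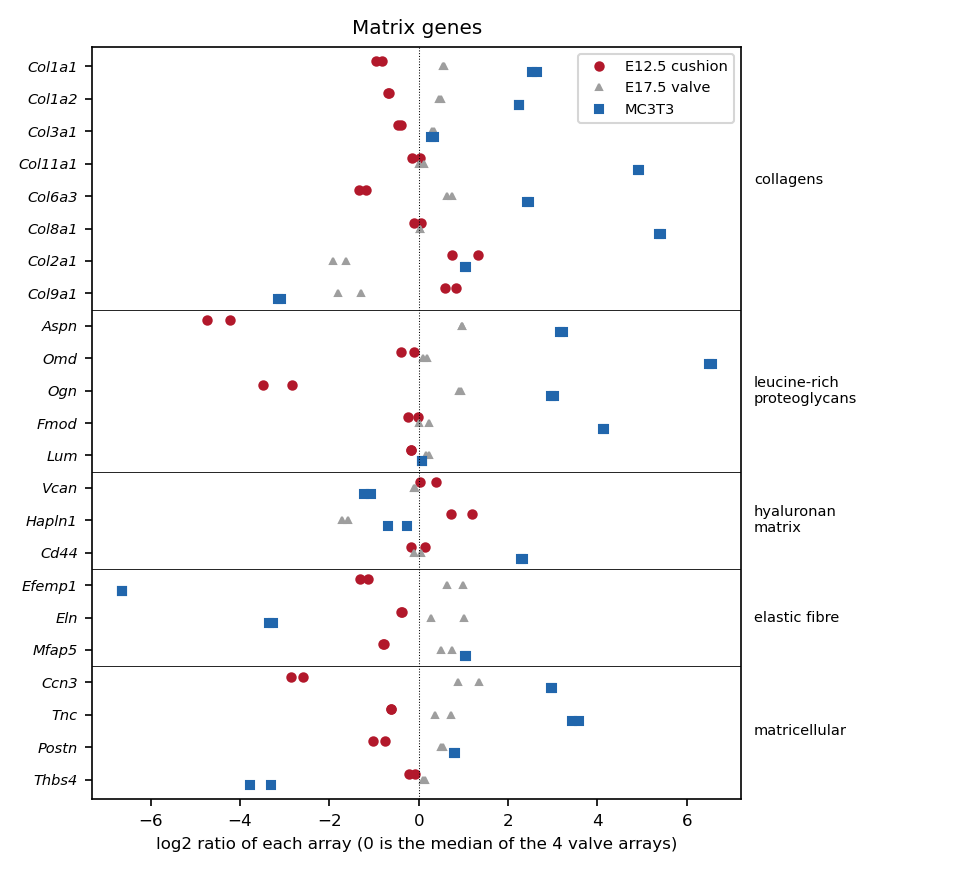
Log2 ratio of each array for matrix genes, with cushion arrays as circles, E17.5 valve arrays as triangles and MC3T3 arrays as squares. The cushion arrays lie below the MC3T3 arrays for collagen I, collagen VI, asporin, osteomodulin, osteoglycin and tenascin C, and above them for Col9a1, Vcan, Hapln1, Efemp1, Eln and Thbs4.

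Of 22 bone matrix and mineralization genes 9 were called higher in MC3T3 and 1 higher in the cushion, with a median difference of -0.80. Ibsp, encoding bone sialoprotein, an acidic protein that nucleates mineral, stood at 0.09 and -0.06 in the cushion, against 5.63 and 5.60 in MC3T3 (48.5-fold lower in the cushion; log2 difference -5.60 ± 0.10, adjusted p = 8.52e-09), with its 2 probe sets from -7.68 to -3.52. Tnfrsf11b, encoding osteoprotegerin, the decoy receptor that limits osteoclasts, stood at -0.16 and -0.26 in the cushion, against 3.45 and 3.51 in MC3T3 (12.9-fold lower; log2 difference -3.69 ± 0.28, adjusted p = 1.25e-05). Mgp, an inhibitor of soft tissue mineralization, stood at -0.57 and -0.73 in the cushion, against 1.95 and 1.98 in MC3T3 (6.11-fold lower; log2 difference -2.61 ± 0.09, adjusted p = 1.46e-07), and Cdh11, the osteoblast cadherin gene, at -0.28 and -0.17 in the cushion, against 1.47 and 1.52 in MC3T3 (3.3-fold lower; log2 difference -1.72 ± 0.10, adjusted p = 3.45e-06). The cushion member was Cthrc1, a collagen triple helix repeat gene, at 0.38 and 0.51 in the cushion, against -2.71 and -2.74 in MC3T3 (8.99-fold higher; log2 difference 3.17 ± 0.13, adjusted p = 4.04e-07). Pth1r, the parathyroid hormone receptor gene, was 2.21-fold lower in the cushion than in MC3T3. Of the later osteocyte genes, Dmp1 differed by -0.75 ± 0.08 and Mepe by 0.07 ± 0.12, and neither was called.

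Of 8 tendon genes 3 were called higher in MC3T3 (Mkx, Fmod and Egr2) and 1 higher in the cushion (Thbs4). Mkx, encoding the tendon regulator mohawk, stood at 0.02 and -0.19 in the cushion, against 4.85 and 4.92 in MC3T3 (31.3-fold lower in the cushion; log2 difference -4.97 ± 0.10, adjusted p = 1.63e-08), and Egr2, an early growth response gene that also acts in tendon, was 5.13-fold lower. Scx, encoding scleraxis, differed by -0.76 ± 0.13, Tnmd by 0.11 ± 0.10 and Egr1 by -0.89 ± 0.08, and none of them was called. The Scx difference came to -1.05, past 2-fold, when probe sets ending in _x or _s were left out.

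Matrix metalloproteinases and their inhibitors were more often higher in MC3T3, with 8 of 20 called there and 1 higher in the cushion. Mmp2, gelatinase A, stood at 0.23 and 0.27 in the cushion, against 2.17 and 2.10 in MC3T3 (3.7-fold lower in the cushion; log2 difference -1.89 ± 0.08, adjusted p = 3.67e-07), Mmp14, the membrane enzyme that activates it, was 2.51-fold lower and Mmp13, a collagenase of bone and cartilage, 3.87-fold lower. The inhibitor genes Timp1, Timp2 and Timp3 were lower as well, 3.7-fold, 3.66-fold and 4.7-fold, so that genes of both enzymes and inhibitors fell. Mmp23 stood at 0.20 and 0.04 in the cushion, against -3.12 and -3.08 in MC3T3 (9.28-fold higher in the cushion; log2 difference 3.21 ± 0.08, adjusted p = 4.57e-08). Among 17 ADAMTS genes, which include versican- and aggrecan-cleaving proteases, 4 were called higher in the cushion and 5 higher in MC3T3. Adamts15, Adamts8 and Adamts20 were higher in the cushion (16-fold, 9.48-fold and 8.45-fold higher), while Adamts4 and Adamts5, the aggrecanases, were 5.63-fold and 5.52-fold lower. The 4 probe sets of Adamts5 ran from -3.47 to -0.12. Adamtsl3, a family member without protease activity, stood at -0.24 and -0.24 in the cushion, against 5.07 and 5.09 in MC3T3 (39.9-fold lower; log2 difference -5.32 ± 0.11, adjusted p = 1.33e-08). Of 27 integrins and laminins 5 (18.5%) were called higher in the cushion and 4 (14.8%) higher in MC3T3, beside 10.2% and 10.8% of all genes. Itga6, a laminin-binding integrin of endothelium and epithelium, was 11.1-fold higher in the cushion, and Itga10, a collagen-binding integrin of cartilage, stood at -0.0021 and 0.07 in the cushion, against 4.23 and 4.20 in MC3T3 (18.1-fold lower; log2 difference -4.18 ± 0.08, adjusted p = 1.02e-08).

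In the BMP and TGF-beta pathways, several BMP ligands and feedback genes were higher in the cushion and 3 secreted antagonists higher in MC3T3. Of 39 measured genes 11 were called higher in the cushion and 8 higher in MC3T3. Bmp2, the ligand that AV muscle sends to the endocardium, stood at 0.19 and 0.62 in the cushion, against -4.12 and -4.59 in MC3T3 (27.1-fold higher; log2 difference 4.76 ± 0.18, adjusted p = 2.65e-07). Bmp7, Bmp6 and Bmp5 were also higher, by 8.86-fold, 5.12-fold and 4.38-fold. Bambi, a decoy receptor that BMP itself induces, stood at 0.44 and 0.50 in the cushion, against -4.33 and -4.37 in MC3T3 (28.3-fold higher; log2 difference 4.82 ± 0.08, adjusted p = 5.3e-09), and the inhibitory Smad genes Smad6 and Smad7 were 3.56-fold and 2.35-fold higher. Id1, a target of BMP signalling from the transcription factor list, stood at 0.41 and 0.41 in the cushion, against -2.9999 and -2.98 in MC3T3 (10.5-fold higher; log2 difference 3.40 ± 0.08, adjusted p = 2.26e-08), with Id2 4.65-fold and Id3 2.41-fold higher.

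Fst, encoding follistatin, which binds activins and BMPs, stood at 0.34 and 0.18 in the cushion, against 5.18 and 5.205 in MC3T3 (30.6-fold lower in the cushion; log2 difference -4.94 ± 0.12, adjusted p = 3.51e-08). Chrdl1, a chordin-like BMP binder, stood at -0.15 and -0.19 in the cushion, against 4.74 and 4.84 in MC3T3 (31.2-fold lower; log2 difference -4.96 ± 0.08, adjusted p = 5.3e-09), and Grem1, encoding gremlin, was 9.5-fold lower. Cushion arrays lay below MC3T3 arrays by more than 3 for each. Bmp4 stood at 0.38 and 0.15 in the cushion, against 1.30 and 1.23 in MC3T3 and was 2.01-fold lower, a call lost when arrays were centred on their medians (-0.997), without cushion replicate 2 (-0.89) and without MC3T3 replicate 1 (-0.97). Of the TGF-beta ligands, Tgfb3 was 2.07-fold lower, a call lost without cushion replicate 2 (-0.96), and Tgfb2, the isoform of the cushion, differed by 0.34 ± 0.09 without a call. Tgfbi, a secreted matrix gene induced by TGF-beta, stood at 0.24 and 0.45 in the cushion, against -2.78 and -2.68 in MC3T3 (8.43-fold higher in the cushion; log2 difference 3.07 ± 0.09, adjusted p = 9.79e-08). The endothelial and heart muscle markers moved with the cushion ligands, and their part was not tested.

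Wnt genes split by member. Of 46 measured, 13 were called higher in the cushion and 9 higher in MC3T3. Wnt2, a ligand of heart mesoderm, stood at 0.66 and 0.40 in the cushion, against -3.76 and -4.25 in MC3T3 (23.2-fold higher; log2 difference 4.54 ± 0.16, adjusted p = 2.22e-07), and Wnt11, a noncanonical ligand of the outflow tract, was 5.79-fold higher. The secreted antagonist gene Sfrp1 was 8.91-fold higher in the cushion and Lef1, a nuclear partner of beta-catenin, 2.59-fold higher. Wnt10a, a ligand with a role in bone and tooth, stood at 0.23 and 0.20 in the cushion, against 4.34 and 4.03 in MC3T3 (15.7-fold lower in the cushion; log2 difference -3.97 ± 0.11, adjusted p = 5.53e-08), with Fzd5, a receptor gene, 5.6-fold lower and Rspo2, an enhancer of Wnt receptors, 4.86-fold lower. Rspo1, of the same family as Rspo2, was 7.89-fold higher in the cushion. Axin2, a common readout of beta-catenin signalling, stood at 0.37 and 0.27 in the cushion, against 0.05 and 0.10 in MC3T3 and was not called (log2 difference 0.24 ± 0.08, adjusted p = 0.0345).

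Of 22 Notch genes 8 were called higher in the cushion and 1 higher in MC3T3, and 5 of the 8 were the Notch-induced genes Hes1, Hey1, Hey2, Heyl and Nrarp. Hey2, a transcriptional repressor induced by Notch, stood at -0.13 and -0.07 in the cushion, against -5.04 and -5.196 in MC3T3 (32.4-fold higher; log2 difference 5.02 ± 0.10, adjusted p = 1.28e-08). Hey1 was 10.4-fold, Nrarp, a feedback inhibitor, 5.66-fold and Hes1 3.9-fold higher. The ligand gene Jag1 (-0.23 ± 0.14) and the receptor gene Notch1 (0.34 ± 0.11) were not called. Rbpj, the DNA-binding partner of the Notch intracellular domain, stood at -0.07 and -0.01 in the cushion, against 1.42 and 1.46 in MC3T3 (2.8-fold lower in the cushion; log2 difference -1.48 ± 0.07, adjusted p = 1.21e-06). Endothelial markers, among which Notch targets are active, were higher in the cushion in 23 of 27 cases, and their part in these differences was not tested.

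Fibroblast and platelet-derived growth factor genes were called 6 each way of 31. The receptor genes Fgfr1 and Fgfr2 were lower in the cushion. Fgfr1 stood at 0.09 and 0.21 in the cushion, against 2.28 and 2.43 in MC3T3 (4.59-fold lower; log2 difference -2.20 ± 0.10, adjusted p = 5.93e-07) and Fgfr2 at 0.26 and 0.39 in the cushion, against 2.59 and 2.55 in MC3T3 (4.73-fold lower; log2 difference -2.24 ± 0.08, adjusted p = 2.19e-07). Some genes that respond to FGF signalling lay on the other side. Dusp6, a phosphatase that damps ERK, was 3.5-fold higher in the cushion, the ETS factor gene Etv5 3.21-fold higher and the inhibitor gene Spry2 2.5-fold higher. Pdgfra, a receptor of mesenchyme, was 2.44-fold higher, whereas Pdgfrb differed by -0.94 ± 0.11, past 2-fold without cushion replicate 2 (-1.08), and the ligand genes Pdgfc and Pdgfa were 6.13-fold and 3.82-fold lower. Of 14 hedgehog genes 2 were called higher in the cushion and 1 higher in MC3T3. Gli2, a transcription factor of the pathway, stood at 0.32 and 0.34 in the cushion, against -3.71 and -3.32 in MC3T3 (14.4-fold higher; log2 difference 3.84 ± 0.13, adjusted p = 1.35e-07), while its target genes Gli1 and Ptch1 differed by -0.28 ± 0.11 and -0.53 ± 0.10 and were not called.

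Retinoid genes were more often higher in the cushion, 6 of 17 against 1 higher in MC3T3. Aldh1a2, which makes retinoic acid in the epicardium, stood at 0.59 and -0.20 in the cushion, against -4.71 and -5.29 in MC3T3 (36.6-fold higher; log2 difference 5.19 ± 0.28, adjusted p = 1.94e-06), and Rarb, a retinoic acid receptor gene that retinoic acid induces, at 0.01 and -0.06 in the cushion, against -4.63 and -4.44 in MC3T3 (22.8-fold higher; log2 difference 4.51 ± 0.09, adjusted p = 1.16e-08). Crabp1, a binding protein gene, was 15-fold higher, and Cyp26b1, which degrades retinoic acid, 2.07-fold higher, a call lost without cushion replicate 2 (0.991). Crabp2, which carries retinoic acid to its nuclear receptors, stood at 1.39 and 0.58 in the cushion, against 2.59 and 2.53 in MC3T3 (2.98-fold lower in the cushion; log2 difference -1.58 ± 0.22, adjusted p = 0.000447). Aldh1a2 is itself on the epicardial list, all 14 members of which were higher in the cushion, and the part of those cells was not tested.

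In the insulin-like growth factor (IGF) axis the ligand gene Igf2, the paternally expressed growth factor of the embryo, stood at -0.05 and -0.02 in the cushion, against -6.56 and -6.56 in MC3T3 (at least 91.9-fold higher; log2 difference 6.52 ± 0.07, adjusted p = 2.43e-09), whereas Igf1 differed by -0.06 ± 0.10. The binding protein gene Igfbp3 was 19.3-fold higher in the cushion, and Igfbp5 4.47-fold higher in a mean over 2 probe sets from 0.56 to 3.76. Its call was lost when probe sets ending in _x or _s were left out (0.56). Igfbp6 stood at -2.72 and -3.11 in the cushion, against -1.10 and -1.15 in MC3T3 (3.47-fold lower; log2 difference -1.80 ± 0.14, adjusted p = 1.54e-05). Pappa2 was 219-fold lower in the cushion, as given above, while Pappa, the related protease gene, differed by -0.76 ± 0.10. Of 20 genes in the list 6 were called higher in the cushion and 3 higher in MC3T3.

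Imprinted genes are expressed from 1 parental copy in some or all tissues, and many of them set growth of the embryo. They were higher in the cushion in 15 of 35 cases and in MC3T3 in 4. The parental copies were not told apart here. Cdkn1c, the maternally expressed gene of the cell cycle inhibitor p57, stood at 0.56 and 0.34 in the cushion, against -5.86 and -6.64 in MC3T3 (at least 104-fold higher; log2 difference 6.70 ± 0.22, adjusted p = 1.4e-07). Nnat, a paternally expressed gene of a small membrane protein, stood at 0.74 and 0.81 in the cushion, against -4.23 and -4.04 in MC3T3 (30.0-fold higher; log2 difference 4.91 ± 0.09, adjusted p = 1.1e-08), and Asb4 at 0.44 and 0.32 in the cushion, against -5.38 and -4.83 in MC3T3 (44.9-fold higher; log2 difference 5.49 ± 0.16, adjusted p = 8.13e-08). Slc38a4, an amino acid transporter gene, was 29.1-fold higher. Ndn, encoding necdin, was at least 19.96-fold higher, with 8 probe sets from -0.08 to 7.01, and Peg3 at least 10.9-fold higher. Dlk1, Meg3 and Rian, from 1 imprinted cluster, were higher by 3.49-fold, 3.08-fold and 3.24-fold, and these include genes expressed from either parental copy. The call of Dlk1 was lost when probe sets ending in _x or _s were left out (0.29), and that of Meg3 with the median over probe sets (0.38). Grb10 (0.51 ± 0.10) and Mest (0.73 ± 0.07) were not called. Higher in MC3T3 were Dcn, given above, Impact (2.81-fold lower in the cushion), Kcnq1ot1 (2.34-fold lower, with 6 probe sets from -2.49 to 0.02) and the ubiquitin ligase gene Ube3a (2.24-fold lower).

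Axon guidance genes, which also steer cardiac and vascular cells, were called 13 higher in the cushion and 7 higher in MC3T3 of 42. Sema3a, a repulsive secreted semaphorin, stood at -0.50 and -0.43 in the cushion, against 3.26 and 3.29 in MC3T3 (13.4-fold lower in the cushion; log2 difference -3.74 ± 0.09, adjusted p = 2.57e-08), and Nrp2, a semaphorin coreceptor gene, was 9.8-fold and Slit2 6.1-fold lower. Epha7 stood at -0.39 and -0.06 in the cushion, against -3.73 and -3.69 in MC3T3 (11.2-fold higher; log2 difference 3.49 ± 0.15, adjusted p = 4.66e-07), Epha3, an ephrin receptor gene needed in the AV cushion, was 9.6-fold higher and Sema3d 6.6-fold higher. Of 24 cadherins and protocadherins 8 were called higher in the cushion and 5 higher in MC3T3, among them Celsr1 (13.7-fold higher) and Pcdh19 (9.87-fold lower).

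Of 36 DNA replication genes 5 (13.9%) were called higher in the cushion and 1 (2.78%) higher in MC3T3, beside 10.2% and 10.8% of all genes. The median difference was 0.42. Rfc2, a clamp loader subunit, stood at 0.51 and 0.33 in the cushion, against -1.14 and -1.07 in MC3T3 (2.88-fold higher; log2 difference 1.53 ± 0.09, adjusted p = 2.7e-06), and Mcm7, a helicase subunit, was 2.09-fold higher. Of 37 mitosis and spindle genes 2 were called higher in the cushion and 10 higher in MC3T3, with a median of -0.17. Mki67, the gene of the proliferation antigen Ki-67, stood at -0.92 and -0.74 in the cushion, against 1.22 and 1.20 in MC3T3 (4.12-fold lower in the cushion; log2 difference -2.04 ± 0.09, adjusted p = 7.42e-07). Ckap2, a spindle gene, was 4.5-fold lower and Bub1, a checkpoint kinase gene, 3.79-fold lower, while Ube2c, which drives exit from mitosis, was 2.59-fold higher. Of 21 cyclins, CDKs and inhibitors 4 were called higher in the cushion and 6 higher in MC3T3. Myc, a driver of growth, stood at -0.03 and -0.10 in the cushion, against 2.79 and 2.69 in MC3T3 (6.99-fold lower; log2 difference -2.81 ± 0.08, adjusted p = 7.21e-08), Cdk6 was 5.67-fold lower and Cdkn2c, the p18 inhibitor gene, 2.52-fold lower. Cdkn2a, the gene of p16 and p19Arf, often lost when mouse cells are established in culture, stood at 0.37 and 0.06 in the cushion, against 0.12 and 0.06 in MC3T3 (log2 difference 0.13 ± 0.11, adjusted p = 0.358), and the sign turned without cushion replicate 1 (-0.028).

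Targets of the tumour suppressor p53 were higher in MC3T3, with 12 of 22 called there and 2 higher in the cushion, and a median difference of -1.40. Cdkn1a, the gene of the cell cycle inhibitor p21, stood at 0.04 and 0.04 in the cushion, against 2.61 and 2.48 in MC3T3 (5.66-fold lower in the cushion; log2 difference -2.50 ± 0.10, adjusted p = 4.77e-07). Eda2r, a receptor gene of the tumour necrosis factor family, stood at -0.21 and -0.07 in the cushion, against 3.76 and 3.83 in MC3T3 (15.3-fold lower; log2 difference -3.94 ± 0.10, adjusted p = 3.86e-08), and Ccng1, encoding cyclin G1, at -0.74 and -0.81 in the cushion, against 1.497 and 1.52 in MC3T3 (4.86-fold lower; log2 difference -2.28 ± 0.08, adjusted p = 1.4e-07). The arrays of the groups did not overlap for these 3, as for 38.1% of all genes with MC3T3 higher. Trp53inp1 was 5.02-fold, Zmat3 4.35-fold, Fas 4.26-fold and Mdm2, the ubiquitin ligase of p53, 2.98-fold lower. The 2 members higher in the cushion were Perp, a desmosome gene, at -0.65 and -0.69 in the cushion, against -6.64 and -6.64 in MC3T3 (at least 63-fold higher; log2 difference 5.98 ± 0.10, adjusted p = 5.3e-09), and Pmaip1 (2.91-fold higher).

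Genes of the amino acid response, in which the transcription factor ATF4 raises amino acid synthesis and transport, were higher in MC3T3. Of 30 genes for ATF4 and the unfolded protein response 16 were called there and 1 higher in the cushion, with a median difference of -1.15. Chac1, a glutathione-degrading enzyme, stood at 0.22 and -0.06 in the cushion, against 3.96 and 3.97 in MC3T3 (14.8-fold lower in the cushion; log2 difference -3.89 ± 0.11, adjusted p = 5.48e-08). Asns, asparagine synthetase, stood at 0.75 and 0.42 in the cushion, against 3.42 and 3.40 in MC3T3 (7.1-fold lower; log2 difference -2.83 ± 0.12, adjusted p = 4.31e-07), and Slc7a5, a transporter of large neutral amino acids, at 0.40 and 0.25 in the cushion, against 3.13 and 3.01 in MC3T3 (6.69-fold lower; log2 difference -2.74 ± 0.09, adjusted p = 1.19e-07). Mthfd2, a mitochondrial folate enzyme, was 5.49-fold, Cth, cystathionine gamma-lyase, 5.18-fold, Ddit3, the gene of CHOP, 3.77-fold and Slc7a11, the cystine transporter gene, 2.62-fold lower. Trib3, a pseudokinase gene, differed between the cushion arrays and stood at 1.80 and 0.56 in the cushion, against 2.80 and 2.69 in MC3T3 (2.96-fold lower; log2 difference -1.57 ± 0.33, adjusted p = 0.00385). Without cushion replicate 2 its difference came to -0.95 and the call was lost. Atf3 went the other way (2.27-fold higher in the cushion). Atf4 itself stood at 0.23 and 0.04 in the cushion, against 0.82 and 0.81 in MC3T3 and was not called (log2 difference -0.68 ± 0.09, adjusted p = 0.000248), and the chaperone gene of the unfolded protein response, Hspa5 (-0.16 ± 0.07), and Xbp1 (-0.07 ± 0.08) were not called either.

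ATF4 binds a composite element that joins a C/EBP and an ATF site. The letters TGATGNAA were searched on both strands of RefSeq promoter windows of GRCm38.p6, 250 bases before to 50 after the start. Of the 14 called members with a window, 5 held a match, and of the 12 other members 2, beside 4.51% of all 27025 genes with a window. The 5 were Chac1, Asns, Slc7a11, Vldlr and Trib3, and in Trib3 the match lay 14 bases past the start. The 250 bases before the start of the other 4 are shown because they are the called members with the element there, 5' to 3' on the gene's strand, with the matches in capitals. A match is a description of the letters and says nothing of binding.
Chac1, chr2:119350992-119351241, plus strand: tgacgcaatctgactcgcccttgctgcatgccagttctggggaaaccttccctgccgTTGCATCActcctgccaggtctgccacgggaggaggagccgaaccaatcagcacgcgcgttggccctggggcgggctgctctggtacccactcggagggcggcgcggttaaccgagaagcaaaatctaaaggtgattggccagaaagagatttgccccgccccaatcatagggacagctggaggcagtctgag
Asns, chr6:7693210-7693459, minus strand: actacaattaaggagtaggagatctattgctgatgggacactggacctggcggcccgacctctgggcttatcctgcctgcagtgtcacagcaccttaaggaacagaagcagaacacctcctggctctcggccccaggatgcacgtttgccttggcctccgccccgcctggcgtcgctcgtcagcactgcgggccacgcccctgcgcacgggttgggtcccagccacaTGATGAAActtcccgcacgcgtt
Slc7a11, chr3:50443614-50443863, minus strand: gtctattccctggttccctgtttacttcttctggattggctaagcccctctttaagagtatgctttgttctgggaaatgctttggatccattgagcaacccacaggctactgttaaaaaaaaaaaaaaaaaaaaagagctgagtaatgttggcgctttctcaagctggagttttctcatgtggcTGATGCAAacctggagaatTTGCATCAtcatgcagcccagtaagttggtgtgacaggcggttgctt
Vldlr, chr19:27216770-27217019, plus strand: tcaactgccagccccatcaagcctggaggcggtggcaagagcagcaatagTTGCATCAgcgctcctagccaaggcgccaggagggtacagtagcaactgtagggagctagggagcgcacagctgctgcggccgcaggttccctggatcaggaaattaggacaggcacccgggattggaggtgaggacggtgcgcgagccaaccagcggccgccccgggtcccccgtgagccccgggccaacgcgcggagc
The window of Slc7a11 held 2 matches. Vldlr, a lipoprotein receptor gene, stood at -1.32 and -0.96 in the cushion, against 1.05 and 1.11 in MC3T3 (4.65-fold lower in the cushion; log2 difference -2.22 ± 0.15, adjusted p = 6.55e-06).

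Cholesterol and fatty acid synthesis genes, many of them targets of the sterol-sensing factors SREBF1 and SREBF2, were higher in MC3T3 in 14 of 29 cases and higher in the cushion in none, with a median of -0.98. Scd1, stearoyl-CoA desaturase, stood at -0.69 and -0.75 in the cushion, against 3.03 and 3.23 in MC3T3 (14.4-fold lower in the cushion; log2 difference -3.85 ± 0.10, adjusted p = 3.94e-08). Cyp51, a demethylase of the cholesterol branch, stood at 0.03 and 0.23 in the cushion, against 2.90 and 3.003 in MC3T3 (7.08-fold lower; log2 difference -2.82 ± 0.11, adjusted p = 3.39e-07), and Hmgcs1, an early enzyme of the mevalonate pathway, at -0.37 and -0.24 in the cushion, against 1.98 and 2.00 in MC3T3 (4.91-fold lower; log2 difference -2.30 ± 0.11, adjusted p = 8.33e-07). Idi1 was 5.43-fold, Msmo1 4.98-fold and Sqle, squalene epoxidase, 4.22-fold lower. Fasn, fatty acid synthase, differed by -0.15 ± 0.08 and the regulator genes Srebf1 and Srebf2 by 0.18 ± 0.10 and -0.98 ± 0.08, and none was called, though Srebf2 passed 2-fold without cushion replicate 2 (-1.05). A sterol regulatory element with the letters TCACNCCAC was found in 1 of the 11 called members with a window, Hmgcs1, in none of the 11 others and in 1.44% of all genes. It is shown in the 250 bases before the start of Hmgcs1, in capitals.
Hmgcs1, chr13:119690101-119690350, plus strand: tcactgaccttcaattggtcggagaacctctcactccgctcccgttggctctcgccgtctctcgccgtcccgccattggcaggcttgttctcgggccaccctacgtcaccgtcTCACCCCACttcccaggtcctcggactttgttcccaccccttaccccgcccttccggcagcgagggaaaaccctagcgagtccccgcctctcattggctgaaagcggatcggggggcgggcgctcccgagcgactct
Other forms of the element were not searched.

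Glycolysis and hypoxia response genes were higher in the cushion in 16 of 27 cases and in MC3T3 in 2, with a median difference of 1.43. Adm, encoding the vasoactive peptide adrenomedullin, stood at 0.09 and -0.04 in the cushion, against -3.86 and -3.67 in MC3T3 (13.9-fold higher; log2 difference 3.79 ± 0.16, adjusted p = 4.31e-07). Slc2a3, a neuronal-type glucose transporter gene, stood at 0.56 and 0.66 in the cushion, against -2.52 and -2.91 in MC3T3 (10.0-fold higher; log2 difference 3.33 ± 0.13, adjusted p = 3.35e-07), and Slc2a1, the widely expressed one, at 0.45 and 0.98 in the cushion, against -2.02 and -2.01 in MC3T3 (6.62-fold higher; log2 difference 2.73 ± 0.16, adjusted p = 2.62e-06). Egln3, an oxygen-sensing prolyl hydroxylase gene, was 5.24-fold, Bnip3, a mitophagy gene, 3.57-fold and the aldolase gene Aldoa 3.51-fold higher. Ldha differed by 0.85 ± 0.10 and Vegfa by -0.03 ± 0.10, with its probe sets from -0.73 to 0.68, and neither was called. The members higher in MC3T3 were Ndrg1 (2.26-fold lower in the cushion) and P4ha1 (2.32-fold lower), both of which hypoxia is known to induce. The letters ACGTGC of the hypoxia response element were found in 4 of 15 called members with a window, in 8 of the 10 others and in 6.68% of all genes.

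Oxidative phosphorylation subunits shifted by a small amount. Of 50 measured, 10 were called higher in the cushion and none in MC3T3, with a median of 0.62, and 46 had arrays that did not overlap with the cushion higher, against 40.4% of all genes. Uqcrc1, a subunit of complex III, stood at -0.01 and 0.05 in the cushion, against -1.53 and -1.53 in MC3T3 (2.94-fold higher; log2 difference 1.55 ± 0.09, adjusted p = 2.66e-06), and Cyc1, cytochrome c1 of the same complex, was 2.7-fold higher. Heart muscle is rich in these subunits, and 28 of 30 cardiomyocyte markers were higher in the cushion. The part of muscle in this shift was not tested.

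**Figure D4:**
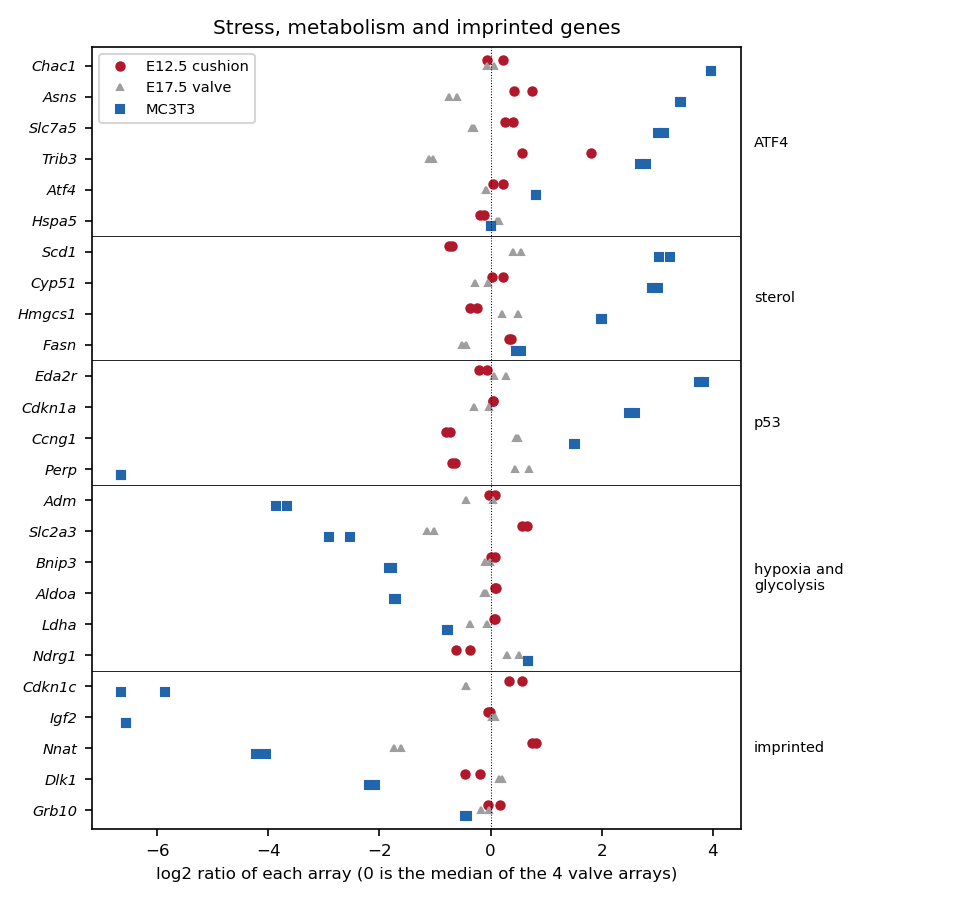
Log2 ratio of each array for genes of stress responses, metabolism and imprinting, with cushion arrays as circles, E17.5 valve arrays as triangles and MC3T3 arrays as squares. The cushion arrays lie well below the MC3T3 arrays for Chac1, Asns, Slc7a5, Scd1, Cyp51, Eda2r and Cdkn1a, and well above them for Perp, Adm, Slc2a3, Bnip3, Aldoa, Cdkn1c, Igf2 and Nnat.

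Interferon response and MHC class I genes were higher in MC3T3 in 8 of 27 cases and in the cushion in 1. Tap2, a peptide transporter gene, stood at -0.03 and -0.40 in the cushion, against 2.37 and 2.40 in MC3T3 (6.09-fold lower in the cushion; log2 difference -2.61 ± 0.12, adjusted p = 7.85e-07), and Psmb9 and Psmb8, subunits of the immunoproteasome, were 4.38-fold and 2.93-fold lower. B2m, the light chain of MHC class I, stood at -0.10 and -0.21 in the cushion, against 1.32 and 1.35 in MC3T3 (2.82-fold lower; log2 difference -1.49 ± 0.08, adjusted p = 1.53e-06). Iigp1, an interferon-inducible GTPase, stood at 0.47 and 0.42 in the cushion, against -3.12 and -3.04 in MC3T3 and was 11.5-fold higher in the cushion (log2 difference 3.53 ± 0.12, adjusted p = 1.62e-07). Without cushion replicate 2 or MC3T3 replicate 2 the number called higher in the cushion was 3.

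Complement genes differed in both directions. The C1 protease genes C1s1 and C1ra were both far lower in the cushion. C1s1 stood at -1.46 and -1.86 in the cushion, against 4.94 and 4.96 in MC3T3 (97.7-fold lower; log2 difference -6.61 ± 0.16, adjusted p = 3.06e-08). C1ra stood at -1.01 and -1.46 in the cushion, against 5.07 and 5.15 in MC3T3 (81.1-fold lower; log2 difference -6.34 ± 0.15, adjusted p = 2.82e-08). Their inhibitor gene, Serping1, stood at -0.69 and -0.84 in the cushion, against -5.71 and -5.55 in MC3T3 (29.1-fold higher in the cushion; log2 difference 4.86 ± 0.09, adjusted p = 1.14e-08). Cd59a, which blocks the membrane attack complex, was 27.7-fold higher, Cfi, the factor I protease that inactivates C3b, 18-fold higher and Clu, encoding clusterin, 8.31-fold higher. In all, 8 of 17 were called higher in the cushion and 2 in MC3T3, and C1qa among the 8 is also a macrophage marker. Serpinf1, encoding the antiangiogenic factor PEDF, was the serpin gene furthest below MC3T3 (14.3-fold lower in the cushion; log2 difference -3.84 ± 0.09, adjusted p = 3.35e-08), with 4 of 16 serpins called higher in MC3T3 and 1 in the cushion. Of 33 chemokine, cytokine and acute phase genes 5 (15.2%) were called higher in the cushion and 3 (9.09%) higher in MC3T3, beside 10.2% and 10.8% of all genes. Il33 was 6.43-fold higher in the cushion and Il6 3.29-fold lower. Ctsk, encoding the collagen-degrading protease cathepsin K, was 5.65-fold lower in the cushion among 25 lysosomal genes, of which 3 were called higher in the cushion and 4 higher in MC3T3.

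Contractile and cytoskeletal genes did not move together. Of 29 smooth muscle and actin genes 8 were called higher in the cushion and 7 higher in MC3T3. Acta2, encoding smooth muscle alpha-actin, stood at -0.15 and -0.19 in the cushion, against 1.86 and 1.80 in MC3T3 (4-fold lower in the cushion; log2 difference -2.00 ± 0.10, adjusted p = 1.3e-06), and Actg2, the enteric smooth muscle actin gene, was 14-fold lower and Mylk, myosin light chain kinase, 5.13-fold lower. Cnn1, encoding calponin, stood at 0.46 and 0.44 in the cushion, against -4.79 and -5.12 in MC3T3 (42.5-fold higher in the cushion; log2 difference 5.41 ± 0.12, adjusted p = 2.6e-08), and Acta1, the skeletal actin gene that embryonic heart also expresses, was 26.4-fold higher. Myocd, a coactivator of cardiac and smooth muscle genes, was 5.08-fold higher, and Tagln differed by 0.82 ± 0.15 without a call. Heart muscle genes moved with the ones higher in the cushion, and their part was not tested.

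Ribosomal protein genes differed by small amounts. Of 49 measured, 2 were called higher in the cushion and 3 higher in MC3T3, with a median of -0.18. Arrays did not overlap for 5 with the cushion higher and for 38 with MC3T3 higher, beside 40.4% and 38.1% of all genes, and on the adjusted p alone 24 were higher in MC3T3. Rps4l, an autosomal copy of Rps4x, stood at 0.46 and 0.49 in the cushion, against -6.64 and -6.64 in MC3T3 (at least 139-fold higher; log2 difference 7.12 ± 0.08, adjusted p = 2.43e-09), whereas Rps4x stood at 0.11 and -0.02 in the cushion, against -0.01 and 0.02 in MC3T3 (log2 difference 0.04 ± 0.08, adjusted p = 0.681). The sign for Rps4x turned without cushion replicate 1 (-0.021) and when probe sets ending in _x or _s were left out (-0.15). Of 14 oncofetal genes 5 were called higher in the cushion and none in MC3T3, with Dusp9 7.74-fold and Hmgb3 3.17-fold higher, and 3 were called with the median over probe sets. Of 22 oxidative stress genes 2 were called higher in the cushion and 6 higher in MC3T3, with Gsta4, a glutathione transferase gene, 68.4-fold higher in the cushion and Nqo1 2.71-fold lower. Of 23 immediate early genes, which answer to handling of tissue and to serum, 4 were called higher in the cushion, led by Dusp1 (3.87-fold), and 5 higher in MC3T3, with Klf4 6.11-fold lower in the cushion.

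Among sex-linked transcripts, Xist, made from the inactive X chromosome, stood at -1.19 and -1.53 in the cushion, against -5.14 and -5.18 in MC3T3 (at least 13.9-fold higher in the cushion; log2 difference 3.80 ± 0.11, adjusted p = 9.05e-08). The Y-linked genes Eif2s3y, Uty and Kdm5d were 7.53-fold, 3.35-fold and 2.68-fold lower in the cushion. The Kdm5d difference came to -0.60, under 2-fold, with the median over its probe sets. The cushion arrays differed for Eif2s3y, at -0.99 and -0.19. The labels do not state the sexes of the pooled embryos.

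**Figure D5:**
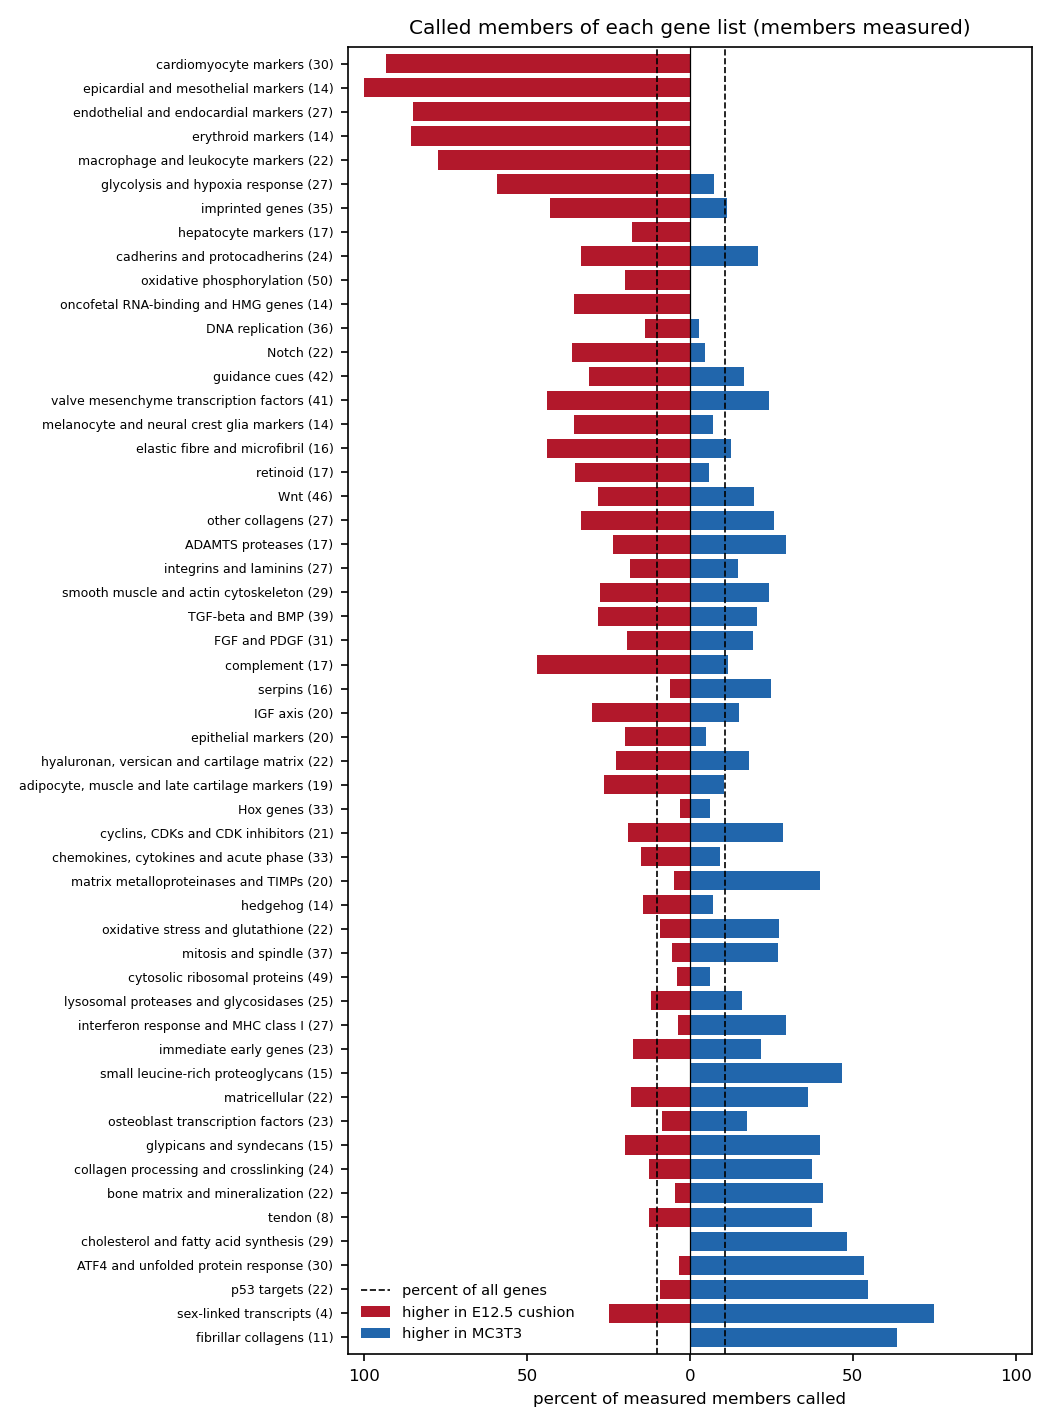
Percent of the measured members of each of 54 gene lists called higher in E12.5 cushion (bars to the left) and higher in MC3T3 (bars to the right), ordered by the median difference. Dashed lines mark the 10.2% and 10.8% of all genes called. Cell type markers of heart, epicardium, endothelium and blood lie at the top, and fibrillar collagens, p53 targets, ATF4 genes and sterol genes near the bottom.

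The E17.5 valve, which shares the MC3T3 arrays with this comparison, was set beside the cushion through the difference between the 2 stages in the same fit. That difference was called for 335 genes higher in the cushion (1.84%) and 850 higher in the valve (4.67%). The distance to MC3T3 was wider at E12.5 for several matrix genes higher in MC3T3. Col1a1 differed between cushion and valve by -1.44 ± 0.08, Col6a3 by -1.95 ± 0.09, Ogn by -4.09 ± 0.18, Ccn3 by -3.84 ± 0.16 and Postn by -1.40 ± 0.10. The valve arrays stood between the cushion and MC3T3 arrays for each of these. For Omd the same difference was -0.39 ± 0.11, for Ibsp -0.10 ± 0.10 and for Sp7 0.27 ± 0.08, none of which reached 2-fold. Twist1, Sox9 and Col2a1, none of which was called between cushion and MC3T3, were lower on the E17.5 arrays than in the cushion. Twist1 stood at -2.12 and -2.25 on the E17.5 arrays (3.03 ± 0.08 between cushion and valve) and Sox9 at -0.56 and -0.59 (1.07 ± 0.08). Col2a1 stood at -1.92 and -1.62 (2.81 ± 0.18). In numbers of called genes, the E17.5 valve had 1780 (9.78%) higher and 1445 (7.94%) lower than MC3T3.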

How the data were processed

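Pooled RNA of 6 samples was hybridized to Affymetrix whole-genome mouse GeneChip arrays. The labels describe 2 amplification routes without saying which sample took which. The authors deposited linear ratios, made by RMA with quantile normalization in GeneSpring and referenced to a median, per the deposited experiment description. RMA is also named in the submitters' processing notes. For all 45101 probe sets the deposited ratios of the 4 valve arrays have 1 as their median (tolerance 1e-05), and no ratio lies under 0.01.

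Ratios were taken to log2. After 64 control probe sets, 932 naming several genes and 9160 without a gene name were left out, 34945 probe sets gave 18193 genes as means over probe sets, of which 18032 matched the RefSeq table (GRCm38.p6) by Entrez ID. Groups came from the array titles. limma 3.58.1 in R 4.3.3 was fitted to all 6 arrays (lmFit, eBayes; 3 residual and 4.57 prior degrees of freedom) with the contrast cushion minus MC3T3 and Benjamini-Hochberg adjustment. On simulated data for this contrast with 18193 genes, it called 0 of 60 genes changed 1.5-fold, 78 of 80 changed 3-fold and 59 of 60 changed 8-fold, and 2 unchanged genes. The simulation used normal noise with the same spread for a gene in all groups. It had no floor and far fewer changed genes than were called here. The 2-fold requirement largely sets the result at 1.5-fold. These counts check that the fit runs as meant and give no error rate for the real arrays. Tables and figures were made with Python 3.11.15, pandas 2.3.3 and matplotlib 3.10.9.

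Genes were drawn from a rule: the 15 largest called differences each way, the 12 largest bounds, up to 4 called members each way of each list, every member of lists of 12 or fewer, a fixed list, and those nearest the threshold. Not every gene that the rule gives is named, and the choice among them was not set by the rule. At least 322 genes are named, and 77 of them fall outside the rule and were chosen after their values were seen. The comparison, the 54 gene lists and the tests were chosen with earlier results of these data known. Alternatives changed the centring, variance model, samples, probe sets, floor and thresholds. Runx2, Spp1 and Bglap, among others, are not analysed here.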

Additional observations from a re-analysis of the deposited data

Results flagged for a closer look

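For 7 genes the E12.5 cushion and the E17.5 valve lay on opposite sides of MC3T3, each called against it. A large difference between the stages follows from that choice of genes, so its call in limma's fit adds no support. Hapln1, the hyaluronan link protein gene, was higher in the cushion than in MC3T3 by 1.43 ± 0.18 and lower in the valve by -1.17 ± 0.18, a difference of 2.60 between cushion and valve. Hmga2, an oncofetal chromatin gene, gave 1.33 ± 0.08 in the cushion and -1.02 ± 0.08 in the valve, a difference of 2.35. Its valve difference lay just past 2-fold, and its 4 probe sets disagreed in sign between cushion and MC3T3, from -0.23 to 2.09. The other 5 were lower in the cushion than in MC3T3 and higher in the valve, with differences between cushion and valve of -3.94 for Igfbp6, -3.79 for Aoc3, -3.73 for Isg20, -2.82 for Gbp2 and -2.51 for Adgrd1. Igfbp6 stood at -2.72 and -3.11 in the cushion, 0.89 and 1.16 in the E17.5 valve and -1.10 and -1.15 in MC3T3. Both comparisons use the same MC3T3 arrays.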

How the results depend on the processing

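The 1862 genes called higher in the cushion and 1968 higher in MC3T3 became 5341 and 5141 on the adjusted p alone, and 760 and 483 when a 4-fold difference was asked for. They became 3345 and 4896 of 34945 with every probe set as its own item, where the share of calls higher in the cushion was 40.6% against 48.6%. Fewer or more items pass by the construction of these settings. Leaving out 1 array at a time gave 1743 to 1993 and 1916 to 2052 calls, where a group left with 1 array is assumed to vary like the others. The other settings kept both counts within 1.5 times. With the replicate number as a block the calls were 1867 and 1968. The numbers do not pair the samples by the labels, and same-numbered deviations correlated at 0.0582 between cushion and MC3T3, 0.150 between cushion and valve and 0.0233 between valve and MC3T3. The sign of 7 small differences turned when 1 array was left out, with ranges of -0.30 to 0.28 for Col2a1, -0.028 to 0.28 for Cdkn2a, -0.057 to 0.33 for Epcam, -0.14 to 0.0093 for Igf1, -0.030 to 0.16 for Mepe, -0.021 to 0.11 for Rps4x and -0.15 to 0.092 for Vegfa. For Rps4x it also turned (-0.15) without probe sets ending in _x or _s. None of these genes was called in the comparison as reported, but Epcam was called higher in the cushion without those probe sets (1.40, adjusted p = 0.000216). The cause was not tested.

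With 2 pools per group the spread is estimated from few arrays. Signal over background is unknown from ratios, so a low gene cannot be told from an unmeasured one. The 90 genes at the floor give bounds, and without them 1774 genes were called higher in the cushion. Heart muscle, endothelium, epicardium and blood markers all moved with the cushion, and strain, culture and cell type cannot be told apart from the comparison.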

Other observations

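Calls were spread unevenly over chromosomes, given as a description with no test. On chromosome 7, 12.2% of genes were called higher in the cushion and 5.49% higher in MC3T3. On chromosome 1 the shares were 10.8% and 15.1%, on chromosome 10 they were 10.1% and 15.1%, and on chromosome 6 they were 9.84% and 13.96%. The X chromosome had 14.7% and 12.5%.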
